A study of Mus musculus with 8 samples.

Results

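The clustered protocadherins are the cadherin-like genes that stand in 3 tandem arrays, alpha, beta and gamma, on mouse chromosome 18. They were taken here as all rows of the deposited count table whose symbol starts with Pcdha, Pcdhb or Pcdhg, with rows carrying a duplicate suffix left out, of which there were 0 among them. This gave 59 of 24078 rows: 14 alpha, 22 beta, 22 gamma and Pcdha4-g, a readthrough entry that begins in the alpha cluster and ends in the gamma cluster. All 59 passed the filter on low counts.

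RNA of whole hippocampus was sequenced from 4 mice homozygous for the mutant Wfs1 allele Wfs1tm1Koks (replicates 15 to 18) and from 4 wild-type mice (replicates 7 to 10) that carry the same strain label. Wfs1 encodes wolframin, a membrane protein of the endoplasmic reticulum. Age and sex are not given in the labels, and no treatment is named. Each library comes from another individual according to the series design, and the RNA was depleted of ribosomal RNA. Mutant was compared with wild-type, the only contrast in the design.

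Clustered protocadherins are single-pass transmembrane adhesion proteins, best known in neurons, where combinations of isoforms on the cell surface give each cell an identity. Neurites of one cell that meet each other recognise matching isoforms, which underlies self-avoidance and, in hippocampus and cortex, the shaping of dendrites. Each variable exon of the alpha and gamma clusters has its own promoter and encodes the whole extracellular part, the membrane span and a short cytoplasmic stretch, and it is spliced to constant exons that encode a common cytoplasmic end. Beta genes are complete in a single coding exon and have no constant exons. Most variable promoters are picked at random in each neuron through looping by CTCF and cohesin, whereas the C-type isoforms (Pcdhac1, Pcdhac2, Pcdhgc3, Pcdhgc4 and Pcdhgc5) are used more regularly.

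On genome build mm10 the alpha rows lie at chr18:36930184-37187661, the beta rows at chr18:37264938-37524479 and the gamma rows at chr18:37661793-37841873, all on the plus strand. The annotated variable part of an alpha row measured 2346 to 3028 bases, and all 14 rows shared 2860 bases of constant sequence in 3 exons. The variable part of a gamma row measured 2499 to 2961 bases, with 2116 to 2119 shared bases in 3 exons. A read from a constant exon can therefore belong to any row of its cluster, and the counting of such reads by the authors is not stated in the labels. In the annotation Pcdhb21 and Pcdhb22 also overlap, so reads there could fall to either.

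Library totals ran from 3250949 to 6747411 counts. Wfs1 was counted at 16.3, 17.7, 13.3 and 12 CPM (the count of a row as a rate of its library's total, scaled between libraries with TMM factors) in the homozygous libraries 15 to 18, against 54.6, 47.5, 61.3 and 44.6 CPM in wild-type libraries 7 to 10. Its log2 fold change was -1.81 (SE 0.16, adjusted p 2.62e-05), by the quasi-likelihood test of edgeR, with Benjamini-Hochberg adjustment over the 20478 genes tested; every adjusted p below comes from this method. All 7 markers of hippocampal principal neurons were detected in every library, the least at 2.06 CPM. The difference between genotypes was broad: 8409 genes (41.1%) passed the threshold of 0.05, 4241 (20.7%) higher and 4168 (20.4%) lower in homozygous hippocampus, with a median log2 fold change over all genes of 0.05.

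Of the 59 clustered protocadherin rows, 36 fell, 2 rose and 21 did not pass the test. The 3 clusters differed in this. All 14 alpha rows fell, with no overlap between genotypes. Of the 22 gamma rows 18 fell and 0 rose. Of the 22 beta rows 4 fell, 2 rose and 16 did not pass. With TMM factors their summed level was nearly the same in both genotypes. Of all genes, 20.4% were lower and 20.7% higher. Over all genes, 37.6% had no overlap between genotypes, 18.8% with every homozygous library below every wild-type library and 18.8% above.

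**Figure D1:**
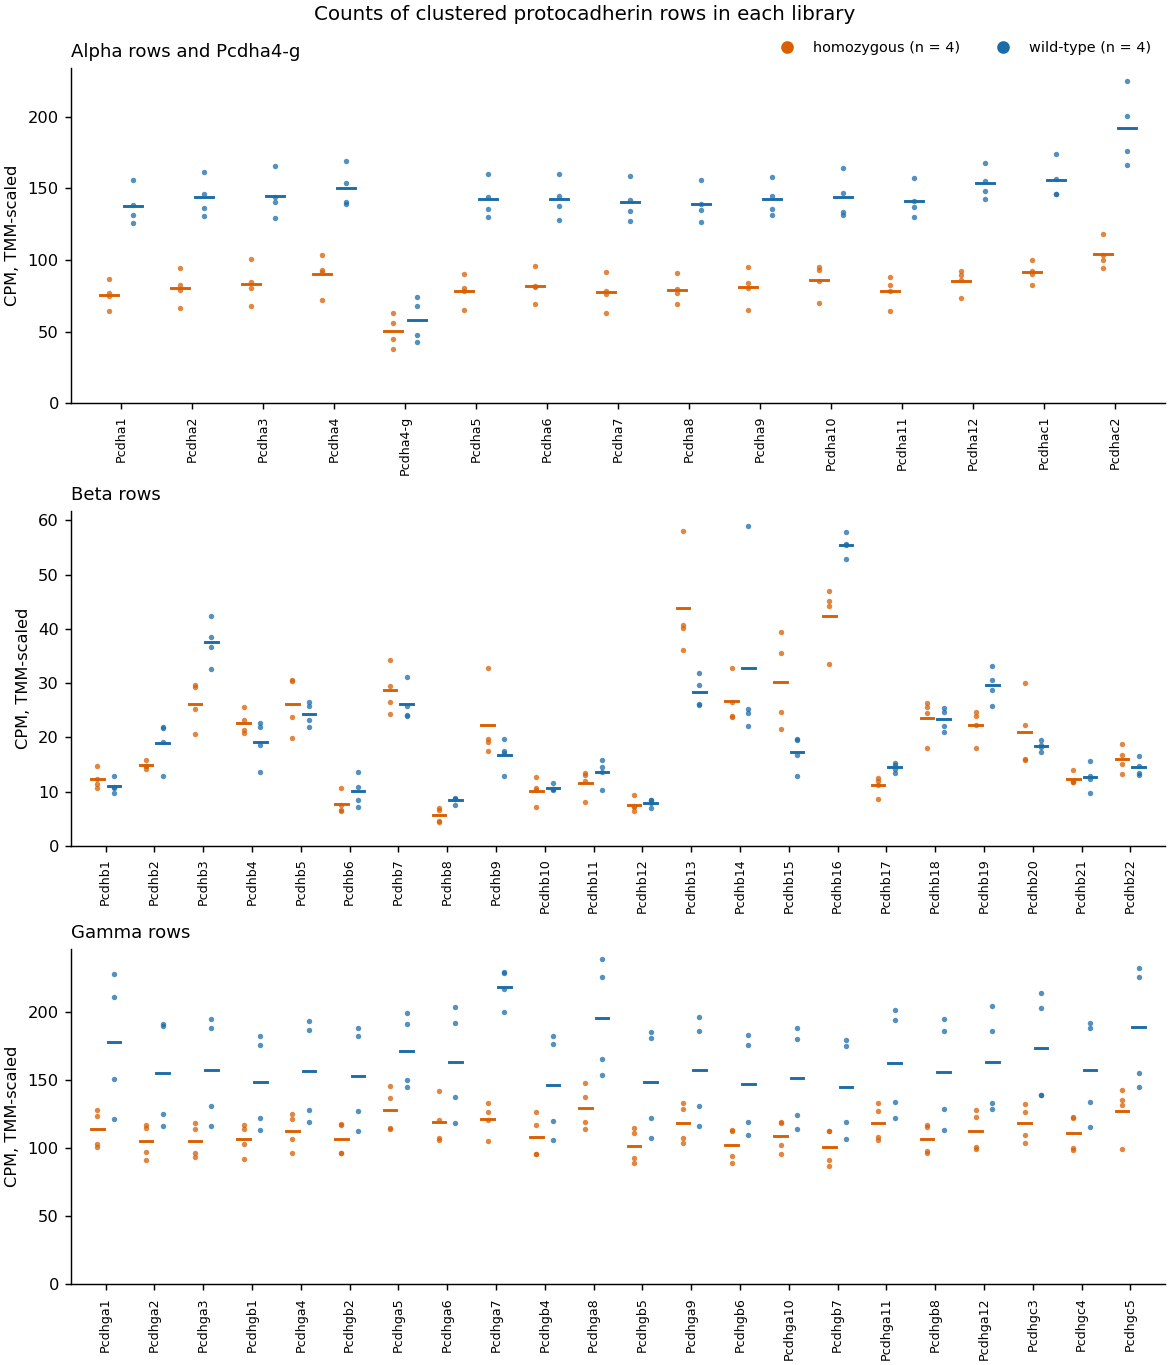
CPM (TMM-scaled, linear axis from 0) of each alpha row and Pcdha4-g, each beta row and each gamma row, in the order of the genes along the chromosome. Points are single libraries, bars are means of 4 libraries, orange is homozygous and blue is wild-type. Every alpha row lies between 63 and 118 CPM in homozygous and between 126 and 225 CPM in wild-type libraries, the gamma rows repeat one pattern of libraries, and the beta rows differ from one another.

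The alpha cluster summed to 1159, 988, 1343 and 1201 CPM in homozygous libraries 15 to 18, and to 2097, 1965, 2332 and 1885 CPM in wild-type libraries 7 to 10. The highest homozygous sum lay well below the lowest wild-type sum. The means were 1173 ± 146 CPM in homozygous and 2070 ± 195 CPM in wild-type hippocampus (SD, n = 4 each), a log2 ratio of -0.82. The log2 fold changes of the 14 rows lay within a narrow range, -0.88 to -0.74 with a median of -0.82, and their adjusted p-values ran from 0.000488 to 0.00193.

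Of the alpha rows, Pcdha12 had the smallest p. It was counted at 86.2, 73.5, 92.5 and 89.2 CPM in homozygous libraries 15 to 18, and at 154.9, 148, 167.6 and 143 CPM in wild-type libraries 7 to 10 (log2 fold change -0.85, SE 0.12, adjusted p 0.000488). The C-type isoforms, whose promoters are known to be regulated apart from the other alpha promoters, stood highest in the cluster: Pcdhac2 averaged 104 ± 10.2 CPM in homozygous and 192 ± 26.3 CPM in wild-type libraries, a log2 fold change of -0.88 (SE 0.14, adjusted p 0.000735). Pcdhac1 averaged 91.3 ± 6.97 CPM in homozygous and 155.7 ± 13.1 CPM in wild-type libraries, a log2 fold change of -0.77 (SE 0.12, adjusted p 0.000717). Pcdha1, the first gene of the cluster and its lowest row, averaged 75.7 ± 9.02 CPM in homozygous and 137.9 ± 13.1 CPM in wild-type libraries.

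The near-equality of the alpha rows extended to single libraries. For each pair of rows the 2 sets of counts over the 8 libraries were compared by chi-square, where a value per degree of freedom (7) near 1 is what independent sampling of one profile gives and a value near 0 means that largely the same reads were counted in both rows. The median over the 91 alpha pairs was 0.32, and 85 pairs (93.4%) were under 1. Of the 231 gamma pairs 141 (61.0%) were under 1, with a median of 0.67. The beta genes, which have no constant exons, gave the contrast: 31 of 231 pairs (13.4%) were under 1, with a median of 2.41. Counts of 69 alpha pairs and 124 gamma pairs stayed within 20% of each other in all 8 libraries, against 0 beta pairs. The alpha rows are thus not 14 separate measurements of a fall, and neither are the gamma rows 22.

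An upper limit for the reads that all rows of a cluster share is the count of its lowest row in the same library. In the alpha cluster this limit was 74.9, 63.3, 86.5 and 76.9 CPM in homozygous libraries 15 to 18, and 138.6, 131, 155.6 and 125.8 CPM in wild-type libraries 7 to 10. Every homozygous value was below every wild-type value by a wide margin. The lowest row made up 91.3% to 93.2% of the median alpha row in homozygous libraries and 95.9% to 96.8% in wild-type libraries. The log2 ratio of the mean limits was -0.87, close to the log2 fold change of every single row.

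What each row held above the lowest row was then summed over the cluster; these counts are called unshared below, and each is a lower bound for reads that the row did not share with the whole cluster. The alpha rows held 111, 101, 133 and 124 unshared CPM in homozygous libraries 15 to 18, and 156, 128, 153 and 124 unshared CPM in wild-type libraries 7 to 10. Here the genotypes overlapped. The means were 117 ± 13.9 CPM in homozygous and 140 ± 16.8 CPM in wild-type hippocampus (SD, n = 4 each), a log2 ratio of -0.26 against -0.87 for the shared limit. Per kilobase, the ratio of unshared counts over variable exons to the shared limit over constant exons was 1.62 to 1.78 in homozygous libraries and 1.04 to 1.2 in wild-type libraries, without overlap.

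**Figure D2:**
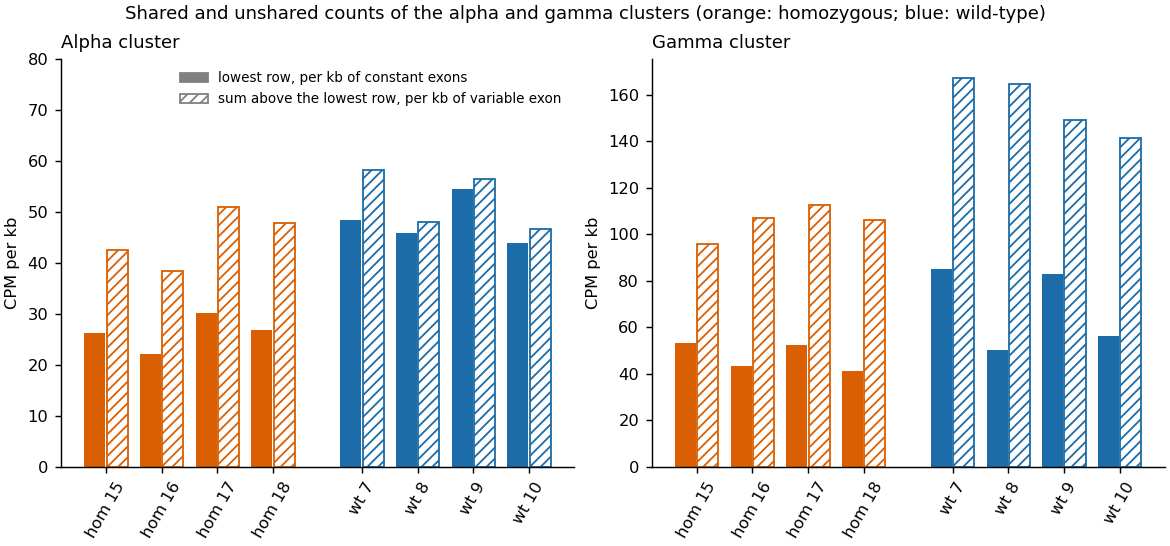
For each library, the count of the lowest row of the cluster per kilobase of constant exons (filled bars) and the summed counts above it per kilobase of variable exon (hatched bars), in CPM per kb on linear axes from 0, homozygous libraries in orange and wild-type libraries in blue. In the alpha cluster the filled bars are lower in all 4 homozygous libraries (22.1 to 30.2) than in all 4 wild-type libraries (44.0 to 54.4) while the hatched bars overlap, and in the gamma cluster the hatched bars separate the genotypes (95.8 to 112.5 in homozygous, 141.5 to 166.9 in wild-type libraries).

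Within the alpha cluster the unshared counts were unevenly spread. Pcdhac2, which is also known from serotonergic neurons, held the most: 25.1, 31.1, 31.8 and 26.4 unshared CPM in homozygous libraries 15 to 18, and 62.1, 44.8, 69.0 and 40.2 unshared CPM in wild-type libraries 7 to 10. All homozygous libraries were below all wild-type libraries. After the lowest row had been subtracted from every alpha and gamma row, the same test over all genes gave Pcdhac2 a log2 fold change of -0.93 (SE 0.18, adjusted p 0.00256). Such differences of counts carry the sampling noise of both rows. The serotonergic markers Tph2 and Slc6a4 did not pass the test. Fev rose with an adjusted p of 0.0499, but the genotypes overlapped. It stood at 7.8, 8.1, 27.8 and 11.7 CPM in homozygous libraries 15 to 18, and at 5.8 to 8.2 CPM in wild-type libraries. The part of these markers in the result was not tested.

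Of the 12 alpha rows that had enough unshared counts for a test, 2 fell, 1 rose and the median log2 fold change was -0.0022. Over all genes of that fit, 20.3% were lower and 20.6% higher. Pcdha12 fell by 0.62 on the log2 scale (SE 0.22, adjusted p 0.0390), with 9.97 ± 2.74 unshared CPM in homozygous and 15.6 ± 2.39 unshared CPM in wild-type libraries, and this call was lost without any of 6 of the 8 libraries taken singly. The row that rose was Pcdha8, on 55 counts summed over homozygous and 15 over wild-type libraries, and its call was also lost in 6 of the 8 fits with a library left out. Pcdhac1 held 15.9 ± 2.58 unshared CPM in homozygous and 17.9 ± 2.26 unshared CPM in wild-type libraries (log2 fold change -0.18, adjusted p 0.381). The other 12 alpha rows, without the C-types, together held 70.0, 50.8, 87.6 and 82.5 unshared CPM in homozygous libraries 15 to 18 and 76.1, 68.2, 65.8 and 63.1 unshared CPM in wild-type libraries 7 to 10. These sums overlapped, with a log2 ratio of 0.09. Reads of the lowest row's own variable exon may have been subtracted too, so these lower bounds cannot show whether variable-exon reads fell.

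Pcdha4-g, which bridges both clusters, did not pass the test. Its counts were 56.2, 37.8, 62.7 and 44.9 CPM in homozygous libraries 15 to 18, and 67.7, 42.7, 74.0 and 47.8 CPM in wild-type libraries 7 to 10, with wide overlap (log2 fold change -0.21, SE 0.20, adjusted p 0.433). The chi-square per degree of freedom against single alpha rows had a median of 11, and against single gamma rows a median of 3.37. Its span on the RefSeq annotation, 36952648 to 37841873, starts with Pcdha4 and ends with the last gamma exon.

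The gamma cluster was lower in homozygous hippocampus too, with a wide spread between animals of each genotype. It summed to 2730, 2292, 2738 and 2189 CPM in homozygous libraries 15 to 18, and to 4392, 2766, 4250 and 2995 CPM in wild-type libraries 7 to 10. Libraries 15 and 17 were above 16 and 18, and libraries 7 and 9 above 8 and 10, so that the highest homozygous sum came within reach of the lowest wild-type sum. The means were 2487 ± 288 CPM in homozygous and 3601 ± 839 CPM in wild-type hippocampus (SD, n = 4 each), a log2 ratio of -0.53. All 22 log2 fold changes were negative, from -0.85 to -0.41 with a median of -0.52. Of the 22 rows, 5 had no overlap between genotypes, where 18.8% of all genes had every homozygous library below every wild-type library.

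The 18 gamma calls depended on single libraries and on the scaling. Without wild-type replicate 7, and likewise without wild-type replicate 9, 1 gamma row passed the test, where 16.3% of all genes were lower in each fit. Without homozygous replicates 15, 16 and 18 in turn it was 11, 6 and 3 rows, beside 17.1%, 18.9% and 18.8% of all genes, and without wild-type replicate 8 it was 22 rows beside 20.1%. With library totals in place of TMM factors 1 row passed (11.8% of all genes), and after removal of a trend of fold change on abundance also 1 (16.6%). Ttr, the defining marker of choroid plexus, stood at 594, 29.0, 723 and 18.5 CPM in homozygous libraries 15 to 18 and at 431, 1018, 317 and 89.8 CPM in wild-type libraries 7 to 10, and of the 7 choroid plexus and ependyma markers 0 rose and 1 fell; their part in the gamma result was not tested.

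The 4 gamma rows that did not pass were Pcdhga6, Pcdhgb4, Pcdhga9 and Pcdhga11, with adjusted p-values of 0.0594 to 0.0889 and log2 fold changes of -0.46 to -0.41, at the small end of the range of the cluster. The C-type rows were among the rows that fell. Pcdhgc5 averaged 127.6 ± 19.1 CPM in homozygous and 189.5 ± 45.9 CPM in wild-type libraries (log2 fold change -0.57, adjusted p 0.0290). Pcdhgc3 averaged 118 ± 13.7 CPM in homozygous and 174 ± 40.5 CPM in wild-type libraries (log2 fold change -0.56, adjusted p 0.0237). Pcdhgc4, an isoform known for the survival of interneurons, averaged 111 ± 13.2 CPM in homozygous and 157.8 ± 38.6 CPM in wild-type libraries (log2 fold change -0.51, adjusted p 0.0394).

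Pcdhga7 had the highest wild-type mean of the gamma rows. It was counted at 133, 121, 126.9 and 105 CPM in homozygous libraries 15 to 18, and at 229.7, 217, 228.8 and 200.1 CPM in wild-type libraries 7 to 10. The unshared counts of Pcdhga7, described below, were more widely spread in wild-type libraries, from 49.9 to 111 CPM. In the deposited row the genotypes were far apart and the 4 wild-type libraries lay close together, unlike in the neighbouring rows. Its log2 fold change was -0.85 (SE 0.12, adjusted p 0.000535), the smallest p of the cluster, and it was the gamma row that kept its call with library totals (-0.64, adjusted p 0.00278) and after removal of the abundance trend (-0.43, adjusted p 0.0180), though not after removal of a trend on counts per kilobase (-0.30, adjusted p 0.0802). Pcdhga8, its neighbour by one gene, averaged 129.9 ± 15.9 CPM in homozygous and 196 ± 42.6 CPM in wild-type libraries (log2 fold change -0.59, adjusted p 0.0161). Pcdhga1, the first gene of the cluster, averaged 114 ± 14.0 CPM in homozygous and 178 ± 50.2 CPM in wild-type libraries (log2 fold change -0.64, adjusted p 0.0219).

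**Figure D3:**
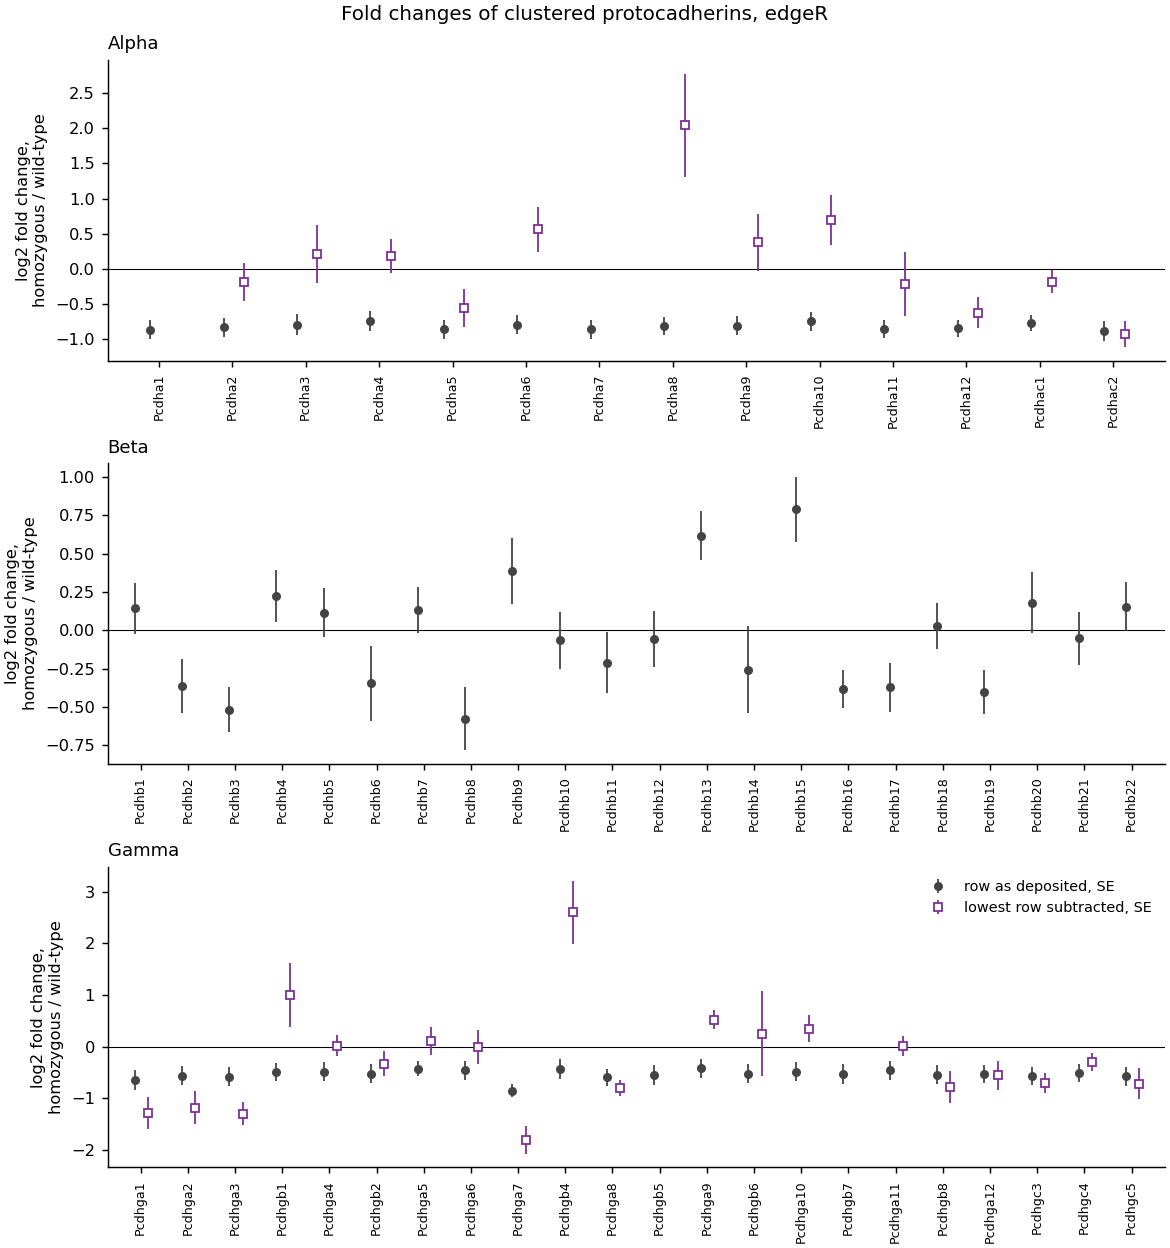
Log2 fold change (homozygous over wild-type) with its SE for every alpha, beta and gamma row, from the fit across all genes. Filled circles are rows as deposited, and open squares are alpha and gamma rows after the lowest row of the cluster had been subtracted in each library. The filled alpha circles lie between -0.88 and -0.74 while the open squares lie on both sides of 0, from -0.93 for Pcdhac2 to 2.04 for Pcdha8, and among the open gamma squares Pcdhga7 is lowest at -1.80.

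In the gamma cluster both portions were lower. The shared limit was 113, 91.5, 111 and 86.9 CPM in homozygous libraries 15 to 18 and 179.8, 106, 175.5 and 119 CPM in wild-type libraries 7 to 10, and it carried the alternation between libraries, with homozygous 15 and 17 above wild-type 8. The unshared sum was 251, 279, 295 and 278 CPM in homozygous libraries 15 to 18 and 437, 431, 389 and 370.5 CPM in wild-type libraries 7 to 10. It separated the genotypes without overlap and did not show the alternation. The means were 276 ± 18.4 CPM in homozygous and 407 ± 32.3 CPM in wild-type hippocampus (SD, n = 4 each), a log2 ratio of -0.56. Per kilobase, the ratio of unshared to shared counts was 1.80 to 2.59 in homozygous and 1.80 to 3.29 in wild-type libraries, so it overlapped in the gamma cluster, whereas it did not in the alpha cluster.

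Of the 20 gamma rows with enough unshared counts for a test, 6 fell and 2 rose, with 12 negative and 8 positive log2 fold changes; over all genes of that fit 20.3% were lower and 20.6% higher. These 8 are described here whether or not the rule for named genes selects them; Pcdhga2, Pcdhga3, Pcdhga9 and Pcdhgb4, like Pcdha8 above, were chosen after their values were seen. Pcdhga7 held 20.7, 29.3, 15.9 and 18.5 unshared CPM in homozygous libraries 15 to 18, and 49.9, 111, 53.3 and 80.8 unshared CPM in wild-type libraries 7 to 10. All homozygous values lay below all wild-type values, and the log2 fold change was -1.80 (SE 0.27, adjusted p 0.000604). Pcdhga8 held 29.4 ± 6.61 unshared CPM in homozygous and 50.9 ± 5.80 unshared CPM in wild-type libraries, also without overlap (log2 fold change -0.80, SE 0.16, adjusted p 0.00327).

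In unshared counts the first 3 genes of the gamma cluster, Pcdhga1, Pcdhga2 and Pcdhga3, fell by 1.28, 1.17 and 1.29 on the log2 scale (adjusted p 0.00718, 0.0137 and 0.00147). Their rows as deposited had log2 fold changes of -0.64, -0.56 and -0.58. Reads of the lowest row's own variable exon may have been subtracted here too. These lower bounds therefore cannot show whether variable-exon reads fell. Pcdhga1 held 13.7 ± 3.11 unshared CPM in homozygous and 32.9 ± 15.3 unshared CPM in wild-type libraries, and Pcdhga2 held 4.81 ± 1.56 in homozygous and 10.4 ± 3.51 in wild-type libraries. Pcdhga3 held 5.13 ± 1.5 unshared CPM in homozygous and 12.6 ± 2.18 unshared CPM in wild-type libraries. Of these 3 only Pcdhga3 had no overlap between genotypes. The C-type isoform Pcdhgc3, which is expressed in many cell types, held 17.8 ± 3.13 unshared CPM in homozygous and 28.8 ± 6.59 unshared CPM in wild-type libraries (log2 fold change -0.70, adjusted p 0.0150). Pcdhgc5 averaged 27.1 ± 13.5 unshared CPM in homozygous and 44.3 ± 8.23 unshared CPM in wild-type libraries and did not pass (adjusted p 0.0705), and nor did Pcdhgc4 (log2 fold change -0.29, adjusted p 0.204).

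In unshared counts Pcdhgb4 and Pcdhga9 were called higher, the first on very few counts. Pcdhgb4, the neighbour of Pcdhga7 and Pcdhga8, held 121 counts summed over homozygous and 24 over wild-type libraries (log2 fold change 2.60, SE 0.62, adjusted p 0.00687), and in wild-type replicate 8 it was itself the lowest row. It passed the filter on low counts through the homozygous libraries, so its difference supports nothing further. Pcdhga9 held 17.9 ± 1.84 unshared CPM in homozygous and 12.4 ± 2.93 unshared CPM in wild-type libraries (log2 fold change 0.53, SE 0.18, adjusted p 0.0368), a call that was lost in 6 of the 8 fits with a library left out. The calls on unshared counts of Pcdhac2, Pcdhga1, Pcdhga2, Pcdhga3, Pcdhga7, Pcdhga8 and Pcdhgc3 remained in every such fit. They also remained with library totals, after removal of the abundance trend and with Pcdha1 and Pcdhgb7 subtracted in every library in place of the lowest row. Some were close to the threshold: Pcdhga2 had an adjusted p of 0.04995 without wild-type replicate 9, and Pcdhgc3 0.04962 without homozygous replicate 15. The trend on counts per kilobase was not removed for unshared counts. For Pcdhga7 the log2 fold change over the fits with a library left out ran from -1.99 to -1.56.

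**Figure D4:**
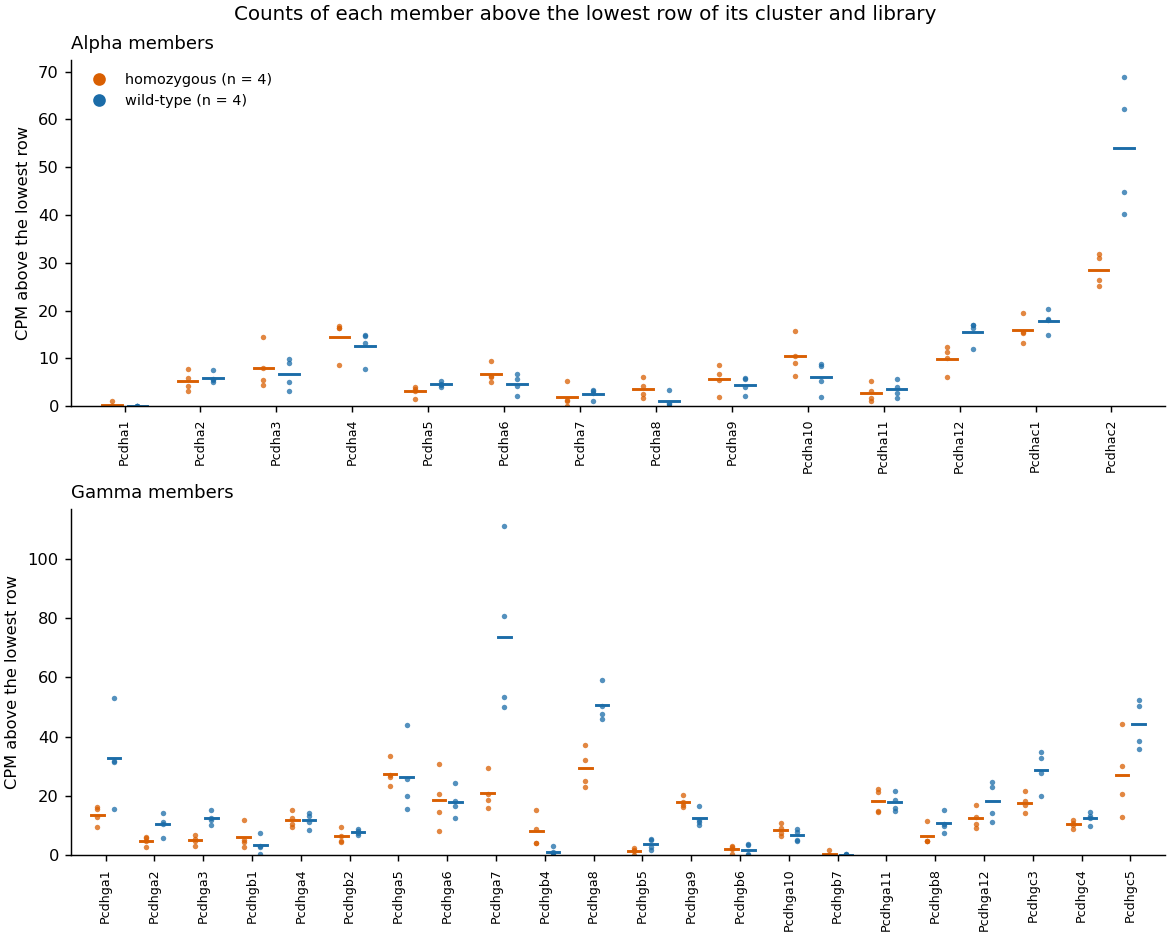
Counts of each alpha and gamma member above the lowest row of its cluster in the same library, in CPM on linear axes from 0, in the order of the genes along the chromosome. Points are single libraries, bars are means of 4 libraries, orange is homozygous and blue is wild-type. Pcdhac2 (28.6 CPM in homozygous, 54.0 in wild-type), Pcdhga7 (21.1 CPM in homozygous, 73.8 in wild-type) and Pcdhga8 (29.4 CPM in homozygous, 50.9 in wild-type) show the widest distances between genotypes, and most other members overlap.

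Per kilobase of variable exon, the order of the unshared levels was similar in both genotypes for most members. In homozygous hippocampus Pcdhga8, Pcdhga5 and Pcdhgc5 stood highest among gamma members, at 11.3, 10.8 and 10.3 CPM per kb, while Pcdhga7, at 8.08, did not reach them. In wild-type hippocampus Pcdhga7 stood highest at 28.3 CPM per kb, before Pcdhga8 at 19.5 and Pcdhgc5 at 16.9. Pcdhac2 stood highest among alpha members in both, at 9.44 CPM per kb in homozygous and 17.8 CPM per kb in wild-type libraries. The Spearman correlation of homozygous with wild-type levels was 0.86 over the 22 gamma members and 0.91 over the 14 alpha members, which share libraries and sequence. Neighbours in this order, such as Pcdhga5 and Pcdhgc5 in homozygous libraries, can differ by less than their SDs.

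With TMM factors the beta cluster kept its summed level. It came to 446, 460, 421 and 456 CPM in homozygous libraries 15 to 18, and to 455.5, 456, 462 and 432 CPM in wild-type libraries 7 to 10. The genotypes overlapped, with means of 446 ± 17.6 CPM in homozygous and 452 ± 13.3 CPM in wild-type hippocampus (SD, n = 4 each) and a log2 ratio of -0.02. The median log2 fold change of the 22 genes was -0.05, with 12 negative and 10 positive. Without the abundance trend this median was -0.22, beside -0.16 for the gamma rows. Without the trend on counts per kilobase it was -0.24, beside -0.034 for the gamma rows. With library totals in place of TMM factors, which moves the median of all genes to 0.25, the log2 ratio of the sums was 0.18. The median of the 22 genes was then 0.15. In that fit 0 beta genes were lower and 3 higher, where 11.8% of all genes were lower and 32.4% higher.

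Within this level sum, Pcdhb13 and Pcdhb15 rose. Calls were no more frequent among beta genes (9.09% higher, 18.2% lower) than over all genes (20.7% higher, 20.4% lower). Pcdhb13 was counted at 40.6, 58.1, 36.1 and 40.2 CPM in homozygous libraries 15 to 18, and at 25.9, 26.1, 31.9 and 29.7 CPM in wild-type libraries 7 to 10. Every homozygous library was above every wild-type library, and the log2 fold change was 0.62 (SE 0.16, adjusted p 0.0106). Pcdhb15 was counted at 24.7, 21.5, 35.6 and 39.3 CPM in homozygous libraries 15 to 18, and at 19.7, 12.9, 19.6 and 16.8 CPM in wild-type libraries 7 to 10, again without overlap but with a wide spread in the homozygous animals (log2 fold change 0.79, SE 0.21, adjusted p 0.0124). Both calls remained in every fit with a library left out, with library totals and after removal of the trend on abundance.

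The 4 beta genes that fell were Pcdhb3, Pcdhb16, Pcdhb8 and Pcdhb19, the last named after its values were seen. Pcdhb3 was counted at 29.7, 29.3, 25.2 and 20.5 CPM in homozygous libraries 15 to 18, and at 42.4, 32.5, 36.6 and 38.5 CPM in wild-type libraries 7 to 10, without overlap (log2 fold change -0.52, SE 0.15, adjusted p 0.0161). Pcdhb16, the beta gene with the highest mean count, averaged 42.4 ± 6.11 CPM in homozygous and 55.4 ± 2.03 CPM in wild-type libraries (log2 fold change -0.38, adjusted p 0.0309). Pcdhb8, the lowest beta gene, averaged 5.65 ± 1.34 CPM in homozygous and 8.39 ± 0.58 CPM in wild-type libraries (log2 fold change -0.58, adjusted p 0.0411). Pcdhb19 averaged 22.2 ± 3 CPM in homozygous and 29.6 ± 3.16 CPM in wild-type libraries (log2 fold change -0.40, adjusted p 0.0408). With a library left out, Pcdhb3 kept its call in 7 of 8 fits, Pcdhb16 in 4, Pcdhb8 in 2 and Pcdhb19 in 2, and DESeq2 did not call Pcdhb8 (adjusted p 0.0644). Over the fits with a library left out 1 to 3 beta genes were lower, where 16.3% to 20.1% of all genes were lower. The count was 1 without wild-type replicate 7, wild-type replicate 9 or homozygous replicate 15, and 2 without wild-type replicate 10 or homozygous replicate 18.

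The annotated exon length of beta genes ran from 2588 to 8695 bases, and levels per kilobase depend on it. Within that limit, counts per kilobase of annotated exon can be compared between beta genes, with the overlap of Pcdhb21 and Pcdhb22 as an exception. They ran from 1.62 to 11.8 CPM per kb in homozygous hippocampus (median 4.72) and from 2.19 to 10.6 CPM per kb in wild-type hippocampus (median 4.45). In homozygous animals Pcdhb13 and Pcdhb15 stood highest, at 11.8 and 10.8 CPM per kb. In wild-type animals Pcdhb16 and Pcdhb3 stood highest, at 10.6 and 9.91 CPM per kb. The Spearman correlation between genotypes over the 22 genes was 0.93, with all genes measured in the same libraries. For alpha members the median unshared level was 2.50 CPM per kb in homozygous and 2.17 CPM per kb in wild-type hippocampus. For gamma members it was 3.90 CPM per kb in homozygous and 4.66 CPM per kb in wild-type hippocampus. These medians are lower bounds, as the lowest row was subtracted, so they cannot be ranked against the beta levels, which hold all counts.

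**Figure D5:**
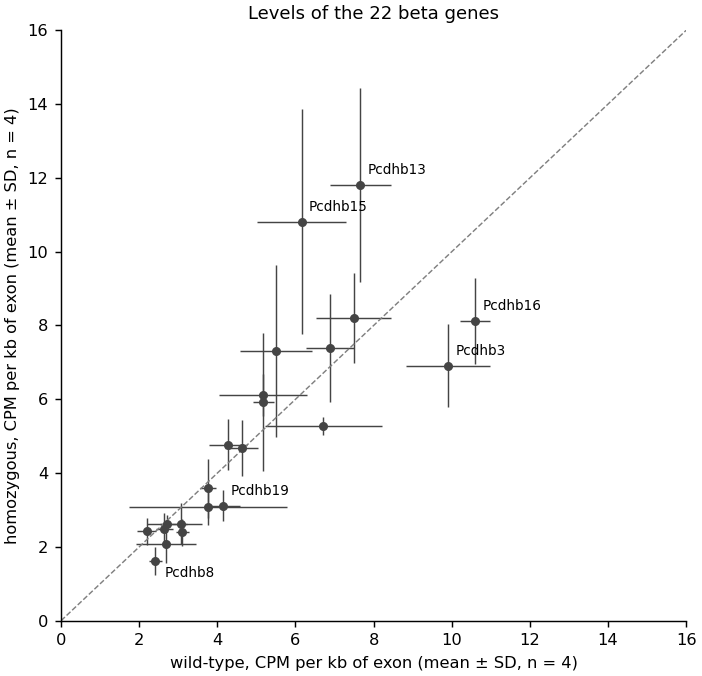
Level of each of the 22 beta genes in homozygous (vertical axis) against wild-type (horizontal axis) hippocampus, in CPM per kb of exon on linear axes, as means with SD over 4 libraries; the dashed line marks equal levels. Most genes lie on the line within their SD, Pcdhb13 and Pcdhb15 lie above it, and Pcdhb16 and Pcdhb3 lie below it.

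Protocadherins outside the clusters, which have their own loci and are not stochastically chosen, moved in both directions. Of the 13 measured, 7 fell, 2 rose and 4 did not pass, where 20.4% of all genes were lower and 20.7% higher. Pcdh18 averaged 45.1 ± 5.42 CPM in homozygous and 114.5 ± 25.6 CPM in wild-type libraries (log2 fold change -1.35, adjusted p 0.000268). Pcdh8, an activity-regulated protocadherin of synapses, fell by 0.69 on the log2 scale (adjusted p 0.00512). Pcdh15, a component of the hair cell tip link that was also well counted here, averaged 186.6 ± 17.3 CPM in homozygous and 91.3 ± 2.83 CPM in wild-type libraries (log2 fold change 1.03, adjusted p 0.000126), and Pcdh12, a vascular protocadherin, rose by 0.76 (adjusted p 0.000636).

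Of 20 genes that act in looping and promoter choice at the clusters, 2 rose, 4 fell and 14 did not pass, which is no more in either direction than the shares over all genes (20.7% higher, 20.4% lower). Rest, which encodes a repressor of neuronal genes that is known to bind within the alpha cluster, was counted at 570.5, 740.2, 527 and 847.7 CPM in homozygous libraries 15 to 18, and at 27.2, 23.7, 27.8 and 26.3 CPM in wild-type libraries 7 to 10. The genotypes lay far apart in every library (log2 fold change 4.67, SE 0.20, adjusted p 1.6e-07). Dnmt3b, the DNA methyltransferase known to set methylation of clustered protocadherin promoters in the embryo, averaged 57.4 ± 16.5 CPM in homozygous and 21.5 ± 1.99 CPM in wild-type libraries (log2 fold change 1.42, adjusted p 0.000302). Ctcf averaged 42.3 ± 5.55 CPM in homozygous and 41.6 ± 4.29 CPM in wild-type libraries (log2 fold change 0.03, adjusted p 0.888). Pds5a and Mau2, a cohesin regulator and a subunit of the cohesin loader, fell by 0.58 and 0.52 (adjusted p 0.00453 and 0.00959). The call of Mau2 was lost with library totals (-0.33, adjusted p 0.0675) and with either trend removed (-0.18 and -0.29). Beside them, the cohesin subunit Rad21 and the cohesin release factor gene Wapal fell by 0.36 and 0.33 (adjusted p 0.0432 and 0.0492).

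Of 24 measured genes for intracellular partners and processing of the proteins, 17 fell, 1 rose and 6 did not pass, where 20.4% of all genes were lower and 20.7% higher. The partners include the focal adhesion kinases Ptk2 and Ptk2b, which bind the constant cytoplasmic ends and are known to be inhibited by them, and the actin-regulating WAVE complex. Rac1, the GTPase upstream of that complex, averaged 74.9 ± 5.55 CPM in homozygous and 162.8 ± 4.48 CPM in wild-type libraries (log2 fold change -1.12, adjusted p 5.54e-05). Ptk2b averaged 294 ± 35.7 CPM in homozygous and 525.6 ± 106.8 CPM in wild-type libraries (log2 fold change -0.84, adjusted p 0.00341). Pak1, Nckap1 and Ctnnb1 fell by 0.71, 0.74 and 0.65 (adjusted p 0.00156, 0.00317 and 0.00323). Once a trend on counts per kilobase was removed, none of these 3 passed: Nckap1 was at 0.11, Pak1 at -0.03 (adjusted p 0.855) and Ctnnb1 at -0.35 (adjusted p 0.0864). Nckap1 and Pak1 also lost their calls without the abundance trend.

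Of 32 measured genes that neighbour the clusters on the chromosome, 3 rose, 12 fell and 17 did not pass, with a median log2 fold change of -0.13, where 20.7% of all genes were higher and 20.4% lower. Slc25a2 and Taf7, which lie between the beta and gamma clusters, did not pass the test (log2 fold change 0.04 and -0.11). The gene that follows the gamma cluster, given in the table as Diap1, did not pass either: it averaged 46.9 ± 1.48 CPM in homozygous and 50.8 ± 2.25 CPM in wild-type libraries (log2 fold change -0.11, adjusted p 0.387). Of the genes further off, Hars fell by 0.61 and Rell2 by 0.77 (adjusted p 0.00223 and 0.00182). The call of Hars was lost after removal of the trend on counts per kilobase (-0.13, adjusted p 0.392). The 3 genes that rose were Pcdh12, Arap3 and Spry4 (log2 fold change 0.76, 0.57 and 0.37, adjusted p 0.000636, 0.00773 and 0.0191), without overlap between genotypes. Pcdh12 and Pcdh1 are also counted above among protocadherins outside the clusters.

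Markers of several cell types had lower sums in homozygous hippocampus; 20.4% of all genes were lower and 20.7% higher. The 7 markers of hippocampal principal neurons summed to 898 to 1019 CPM in homozygous and 1314 to 1805 CPM in wild-type libraries, with 4 lower and 0 higher. The 5 interneuron markers summed to 213 to 254 CPM in homozygous and 292 to 341 CPM in wild-type libraries, with 3 lower and 0 higher. The 4 astrocyte markers summed to 549 to 654 CPM in homozygous and 764.5 to 987 CPM in wild-type libraries, with 2 lower, and the 4 oligodendrocyte markers to 793.5 to 991 CPM in homozygous and 1148 to 1843 CPM in wild-type libraries, with 3 lower. Of 4 microglial and 3 endothelial markers, 1 each was lower and 0 were higher. The oligodendrocyte precursor markers went opposite ways: Pdgfra was lower (log2 fold change -0.37) and Cspg4 higher (log2 fold change 2.53, SE 0.73). Both overlapped between genotypes. Cspg4 varied widely, at 488, 1449, 81.0 and 173 CPM in homozygous libraries 15 to 18. Its wild-type libraries stood at 43.7 to 139 CPM. The part of these cell types in the fall of the alpha and gamma rows was not tested. In whole hippocampus, fewer cells of a type and less RNA per cell cannot be told apart.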

How the data were processed

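The authors deposited 1 table of counts per gene symbol for 8 hippocampus libraries. Per the labels' protocols, total RNA was depleted of ribosomal RNA and read in pairs of 50 and 35 bases (SOLiD 4), and the build is mm10 per the submitters' processing notes. Aligner, counting program, strand setting and treatment of reads in shared exons are not stated there. The values are whole numbers with another total in each library (3250949 to 6747411 counts), which sets the precision of each value, and 0 count columns belonged to no listed sample. Here, filterByExpr of edgeR 4.0.16 (R 4.3.3) left 20478 of 24078 rows, and the genotypes were compared with its quasi-likelihood test (two-sided, TMM factors, no covariate, Benjamini-Hochberg over all genes, threshold 0.05). Positions and exon lengths came from GENCODE M21, in which Pcdha10 was found by its RefSeq position since it is named there as Pcdha11, and the span of Pcdha4-g came from RefSeq, both on mm10. No sequence is printed. For unshared counts, the lowest row of the alpha or gamma cluster was subtracted in each library before the same test.

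The members, gene lists and tests were chosen with earlier results of these data known. The genes named are Wfs1, the C-type isoforms, in each cluster the 4 with the smallest p, the 2 with the highest and the 1 with the lowest mean CPM, and in each related list up to 4 called genes by smallest p and the one of highest CPM; others are given where they illustrate a list or a position and were chosen after their values were seen. The alternatives were DESeq2-type size factors, library totals, no low-count filter, 1 CPM in 4 libraries, robust dispersion, DESeq2 1.42.0, limma-voom (limma 3.58.1) with quality weights, removal of a loess trend (span 0.3) on abundance, subtraction of the lowest row, a threshold of 0.1 and leaving out each library; a trend on counts per kilobase and the settings for unshared counts were added after the data were seen. Errors are SD over 4 libraries, or SE for log2 fold changes.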

Additional observations from a re-analysis of the deposited data

Results flagged for a closer look

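In 3 of 124 groups of 4 libraries (59 rows and 3 cluster sums in each genotype) a single library stood far from the other 3, and chance flags about 1 in 20 such groups. All 3 were beta genes that did not pass the test between genotypes, and they are named after their values were seen. Pcdhb9 stood at 32.9 CPM in homozygous replicate 18, against 17.5 to 19.8 CPM in the other homozygous libraries. Pcdhb14 stood at 59.0 CPM in wild-type replicate 8, against 22.1 to 25.3 CPM in the other wild-type libraries. Pcdhb21 stood at 13.9 CPM in homozygous replicate 15, against 11.7 to 11.9 CPM in the other homozygous libraries. The cause of these values was not tested.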

How the results depend on the processing

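No paired analysis was possible because the genotypes share no replicate numbers. The 14 alpha calls remained under every alternative except subtraction of the lowest row, which left 2 lower and 1 higher with a median log2 fold change of -0.0022; the alpha median was -0.62 with library totals (-0.62 for the summed ratio), -0.51 without the abundance trend and -0.42 without the trend on counts per kilobase. The 18 lower gamma rows became 1 with library totals, 1 without the abundance trend and 0 without the trend on counts per kilobase (medians -0.16 and -0.034 in the last 2). In these fits 11.8%, 16.6% and 15.6% of all genes were lower. Subtraction left 6 gamma rows lower and 2 higher, where 20.3% of all genes were lower and 20.6% higher. With library totals 0 beta genes were lower and 3 higher, where 11.8% of all genes were lower and 32.4% higher. The beta median was then 0.15 and the summed ratio 0.18. The beta median was -0.22 without the abundance trend and -0.24 without the trend on counts per kilobase. Library totals moved the share of calls that were higher to 73.4%, against 50.4%. Removal of the trend on counts per kilobase took Nckap1, Pcdh9 and Rnf14 from -0.74, -0.48 and -0.61 to 0.11, 0.0067 and 0.078. Nckap1 and Pcdh9 lost their calls there (adjusted p 0.613 and 0.972). The cause of these changes was not tested, other than that subtraction leaves fewer counts.

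With a library left out, lower calls ran from 14 to 14 in alpha, 1 to 3 in beta and 1 to 22 in gamma, medians from -0.90 to -0.76, -0.10 to 0.02 and -0.66 to -0.41 in that order, and calls over all genes from 6489 to 8229. In these fits 16.3% to 20.1% of all genes were lower. Unshared lower calls ran from 1 to 2 in alpha and 6 to 8 in gamma. DESeq2 and limma-voom gave 14 lower alpha rows, 19 and 20 lower gamma rows and, in both, 2 higher and 3 lower beta genes. Of all genes, DESeq2 called 20.8% lower and 18.7% higher, and limma-voom 22.5% lower and 22.7% higher. Unshared counts were too few to test for 2 alpha and 2 gamma rows, among them Pcdha1 and Pcdhgb7, which were the lowest row in most libraries.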
